A study of Mus musculus with 6 samples.

Results

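The 10 genes described here encode transcription regulators of the oocyte and the germ line: the basic helix-loop-helix (bHLH) factors Figla, Sohlh1 and Sohlh2, the homeobox factors Nobox, Lhx8 and Pou5f1, the zinc finger factor Sall4, the forkhead factor Foxo3, and Tbpl2 and Taf4b of the general transcription machinery. They were taken by their symbols from a table of 23235 genes, and each symbol had 1 entry. Of the 10 genes, 9 had a mean of at least 1 FPKM, the level of a transcript in fragments per length and sequencing depth, over all libraries and were tested among 12029 genes in all. Sohlh1 lay under that level and is described by its values alone. By the GENCODE annotation of build mm10, the genes lie on chromosomes 6 (Figla and Nobox), 3 (Lhx8 and Sohlh2), 2 (Sohlh1, Tbpl2 and Sall4), 18 (Taf4b), 10 (Foxo3) and 17 (Pou5f1).

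These factors act at different steps of the same path. SOHLH1, SOHLH2, FIGLA, LHX8 and NOBOX are needed in young oocytes, when germ cells are enclosed in primordial follicles and begin to grow, and FIGLA and NOBOX act on genes of the growing oocyte such as those of the zona pellucida and of the secreted factors GDF9 and BMP15. TBPL2 takes the place of the TATA-binding protein TBP in growing oocytes, TAF4B is a gonad-enriched subunit of TFIID, FOXO3 holds primordial follicles at rest under the control of PI3K signalling, and POU5F1 and SALL4 belong to the pluripotency network that the oocyte also expresses.

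The RNA came from fully-grown germinal vesicle (GV) oocytes of C57BL/6 mice, the stage arrested in meiosis before ovulation. Oocytes were of the genotype Rtcb knock-out (Rtcb KO) or wild type (WT), and both came from females given the hormone PMSG 44 to 48 h earlier. RTCB ligates the exons of tRNAs and of Xbp1 mRNA. Each genotype had 3 libraries, KO 1 to KO 3 and WT 1 to WT 3, each of 10 oocytes. The titles carry the mark 6W, which the labels do not explain, and neither the part of Rtcb that was deleted nor how it was deleted is given in the sources used here. Whether each library stands for another animal is not in the labels, and p-values therefore describe only the spread among these 6 libraries, part of which may be technical.

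Rtcb, listed as D10Wsu52e, was at 3.82, 2.62 and 2.49 FPKM in KO 1 to KO 3, against 136, 133 and 113 FPKM in WT 1 to WT 3. It averaged 2.98 ± 0.733 FPKM in Rtcb KO and 127 ± 12.9 FPKM in WT (SD, n = 3 each), a log2 difference of −5.02. The 12 oocyte markers summed to 18254 to 19373 FPKM in Rtcb KO libraries and 28872 to 35064 FPKM in WT libraries. Among the genes of other ovarian cells 4 of 14 granulosa and cumulus markers, 2 of 10 theca and stroma markers, 1 of 9 blood and immune markers and 2 of 5 endothelial markers reached a mean of 1 FPKM. The granulosa and cumulus list summed to 34.0 to 46.0 FPKM in Rtcb KO libraries and 47.5 to 54.8 FPKM in WT libraries, of which Cyp19a1 gave 17.5 to 22.2 FPKM in Rtcb KO and 35.6 to 39.8 FPKM in WT, with Ptx3 at 0 throughout. The theca and stroma list summed to 3.52 to 6.88 FPKM in Rtcb KO and 2.75 to 5.01 FPKM in WT, with Col3a1 and Lum at 0. The blood and immune list summed to 1.35 to 9.20 FPKM in Rtcb KO and 3.13 to 5.74 FPKM in WT, with Hbb-b1 and Hba-a1 at 0. The endothelial list summed to 19.4 to 21.5 FPKM in Rtcb KO and 34.4 to 50.6 FPKM in WT, with Cdh5 and Emcn at 0. Its highest gene was Pecam1, at up to 46.7 FPKM in WT. The part of these cells in the results was not tested.

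The scaling of the values bears on every difference below. The deposited FPKM are normalized to ERCC spike-ins, and the 3 KO columns share 1 multiplication factor and the 3 WT columns have a different one, and the KO factor is 0.667 of the WT factor (−0.58 on the log2 scale). The median log2 difference of all tested genes, Rtcb KO minus WT, was −0.47 as deposited, −0.094 with all libraries brought to equal totals, −0.020 after median-ratio rescaling and 0.043 with the genotype factors removed. Differences are on the log2(FPKM + 1) scale as deposited unless another scaling is named, and this scale understates changes of low genes. By the labels every library of both genotypes held 10 oocytes. As in any bulk library, fewer cells and less RNA per cell cannot be told apart from the values themselves. Read depth is unknown because FPKM do not keep it.

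For 3 of the genes, Figla, Tbpl2 and Sohlh2, the call between genotypes held under each of these scalings, and their promoters are shown for that reason. For a higher call this adds little, since 1110 of the 1118 genes called higher as deposited held that call under all 4 scalings. The sequences are from RefSeq on build GRCm38.p6, which is not the build of the expression values (mm9), and cover the 250 bases before the gene's start, 5′ to 3′ on the gene's strand. Capitals mark each E-box, CANNTG, the element that bHLH factors bind, which reads the same on both strands.
Figla, chr6:86016941-86017190, plus strand: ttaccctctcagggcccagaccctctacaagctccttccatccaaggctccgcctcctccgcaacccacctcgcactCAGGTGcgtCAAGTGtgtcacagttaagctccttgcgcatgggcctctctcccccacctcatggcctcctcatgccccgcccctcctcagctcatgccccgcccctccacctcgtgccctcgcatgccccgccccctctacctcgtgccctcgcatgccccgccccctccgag
Tbpl2, chr2:24096596-24096845, minus strand: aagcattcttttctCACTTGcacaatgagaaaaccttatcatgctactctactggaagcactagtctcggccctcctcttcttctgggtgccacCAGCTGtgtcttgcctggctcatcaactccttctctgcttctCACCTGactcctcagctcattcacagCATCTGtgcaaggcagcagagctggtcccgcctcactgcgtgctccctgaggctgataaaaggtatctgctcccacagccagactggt
Sohlh2, chr3:55181794-55182043, plus strand: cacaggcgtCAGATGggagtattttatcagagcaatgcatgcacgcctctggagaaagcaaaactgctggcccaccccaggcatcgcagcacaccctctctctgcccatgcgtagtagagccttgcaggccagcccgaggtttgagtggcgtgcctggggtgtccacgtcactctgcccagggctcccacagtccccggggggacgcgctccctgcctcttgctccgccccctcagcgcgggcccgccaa
The Figla window held 2 E-boxes, the Tbpl2 window 4 and the Sohlh2 window 1. RefSeq entries were matched for 8 of the 10 genes, with 9 windows in all because Pou5f1 has 2. An E-box stood in 7 of these 9 windows, against 66.2% of 32851 mouse promoter windows of the same length. Other elements were searched on both strands. The homeobox element TAATTG or TAATTA was in 0 of the 9 windows and in 11.3% of all windows, and TATAAA was in 0 of the 9 and in 12.4% of all. A match describes the letters of the window alone.

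The levels ranged from the top of the oocyte transcriptome to below its middle: in WT, Nobox lay at percentile 97.5 of tested genes, Lhx8 at 93.1, Tbpl2 at 47.8 and Sohlh2 at 31.5. In Rtcb KO oocytes the order of mean FPKM, a unit per transcript length, ran from Nobox (608 ± 76.8) through Sall4 (286 ± 6.05), Lhx8 (216 ± 30.4), Figla (171 ± 5.42), Pou5f1 (64.6 ± 10.7), Tbpl2 (30.9 ± 4.67), Taf4b (13.2 ± 4.10), Foxo3 (11.6 ± 0.952) and Sohlh2 (2.998 ± 0.227) to Sohlh1. In WT oocytes it ran from Nobox (784 ± 142) through Sall4 (430.4 ± 27.4), Lhx8 (319 ± 31.0), Pou5f1 (133 ± 56.7), Figla (127 ± 13.5), Tbpl2 (17.0 ± 2.22), Foxo3 (10.2 ± 1.37), Taf4b (9.16 ± 1.65) and Sohlh2 (7.24 ± 1.42) to Sohlh1. Neighbours whose libraries overlapped were Taf4b and Foxo3 in Rtcb KO, and in WT Pou5f1 and Figla, Foxo3 and Taf4b, and Taf4b and Sohlh2. The plot of levels by library shows each factor on its own axis, with the mean and SD beside the points.

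**Figure D1:**
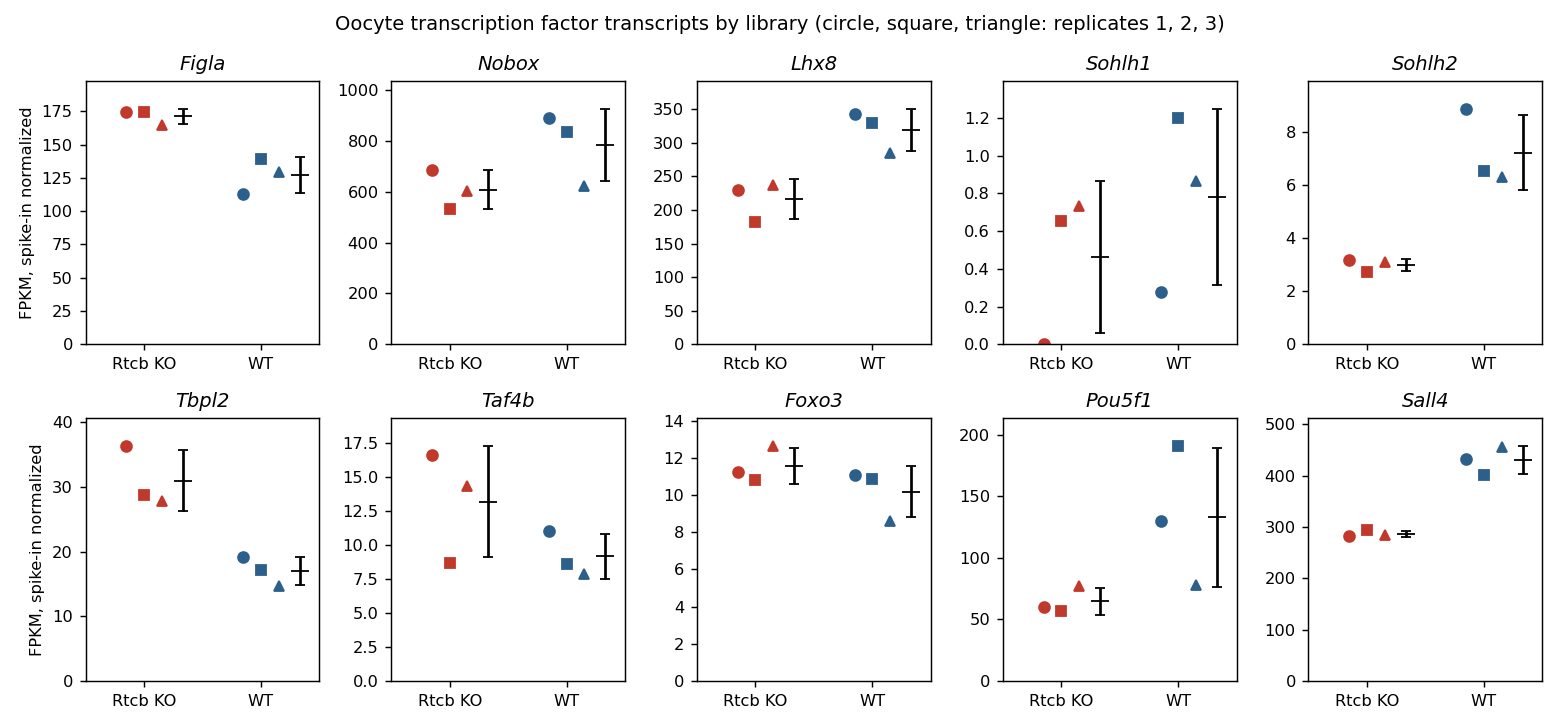
FPKM (spike-in normalized) of the 10 transcription factor genes in each library, Rtcb KO left of WT, with the mean and SD of each genotype beside its points. Figla and Tbpl2 lay higher in all 3 Rtcb KO libraries than in any WT library, and Sohlh2 lay lower.

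Of the 9 tested factors, 2 were called higher in Rtcb KO (Tbpl2 and Figla), 4 were called lower (Sohlh2, Pou5f1, Sall4 and Lhx8) and 3 were not called (Nobox, Taf4b and Foxo3), by limma at an adjusted p under 0.05. Of all tested genes, 63.3% were called, 9.29% as higher and 54.0% as lower. With equal totals, with median-ratio rescaling and with the genotype factors removed, the counts became 4 higher (Tbpl2, Figla, Taf4b and Foxo3) and 1 lower (Sohlh2), where 19.0%, 22.8% and 25.7% of all genes were called higher and 25.8%, 21.7% and 18.0% lower. All calls together made up 44.8% of tested genes with equal totals, 44.5% by median ratios and 43.7% with the factors removed. A call in the same direction under all 4 scalings was held by 9.23% of tested genes for higher and 18.0% for lower, and among the factors by Tbpl2, Figla and Sohlh2. The other scalings raised the median difference of all genes, and 1110 of the 1118 genes called higher as deposited kept the call under all 4. Lower under all 4 were 2161 genes, as many as with the factors removed alone. As deposited, the libraries of Rtcb KO and WT did not overlap for 6 of the 10 genes (Figla and Tbpl2 above WT; Lhx8, Sohlh2, Pou5f1 and Sall4 below it), against 67.8% of tested genes. With the genotype factors removed this held for 5 (Figla, Tbpl2, Taf4b and Foxo3 above WT, as 31.7% of tested genes, and Sohlh2 below it, as 24.7%), against 56.4%. The plot of differences by scaling shows every factor at a higher value once the genotype factors are taken out. This follows from the step itself, which moved the median of all tested genes from −0.47 to 0.043, and is not particular to the factors.

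**Figure D2:**
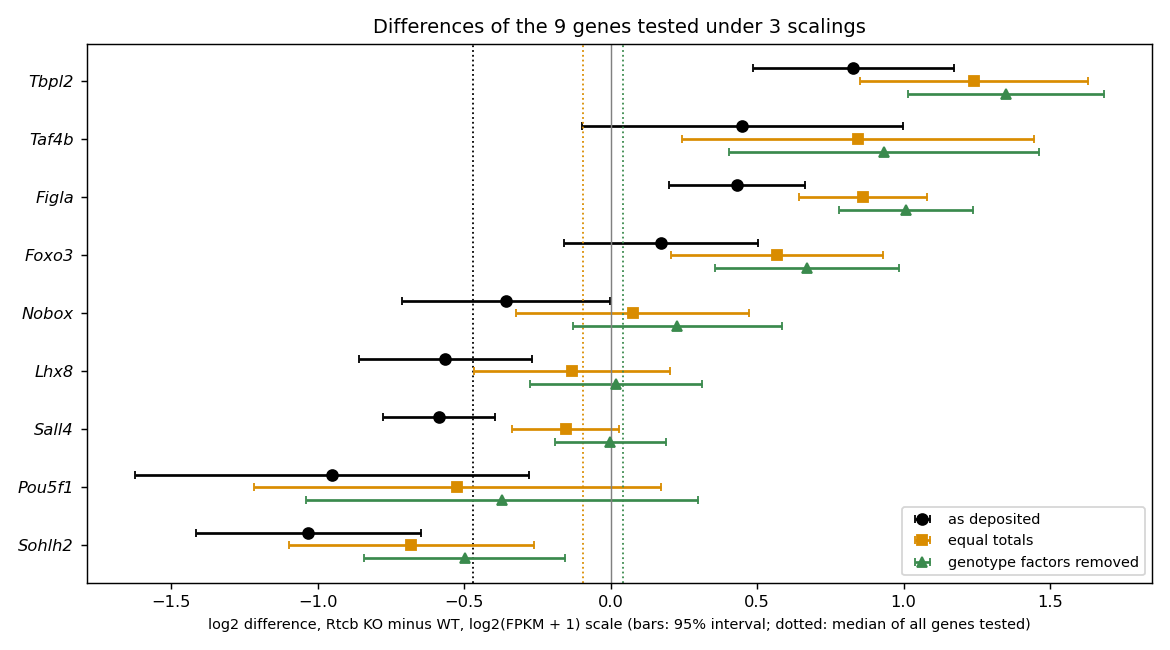
Log2 difference, Rtcb KO minus WT, on the log2(FPKM + 1) scale, of the 9 tested factors under 3 scalings, with 95% confidence intervals from limma and the median of all tested genes as dotted lines. The intervals of Tbpl2 and Figla lay above 0 and that of Sohlh2 below 0 under each of the 3, while Nobox and Lhx8 changed side.

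Among the bHLH factors, Figla was higher and Sohlh2 lower in Rtcb KO. Figla, which activates zona pellucida genes as a partner of E proteins, was at 174.4, 174.3 and 164.9 FPKM in KO 1 to KO 3, against 112.8, 139.6 and 129.1 FPKM in WT 1 to WT 3. All 3 Rtcb KO libraries lay above all 3 WT libraries, as in 10.2% of tested genes. The mean in Rtcb KO was 1.35 times that in WT. The log2 difference was 0.43 (SE 0.1002, limma adjusted p = 0.00626), and it was 0.86 with equal totals and 1.01 with the genotype factors removed. Without any 1 library it lay between 0.35 and 0.50.

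Sohlh2, whose product pairs with SOHLH1 in oocytes of early follicles, was at 3.16, 2.74 and 3.09 FPKM in KO 1 to KO 3, against 8.87, 6.55 and 6.30 FPKM in WT 1 to WT 3. Its groups were wide apart, with all Rtcb KO libraries below all WT libraries, as in 57.5% of tested genes. The mean in Rtcb KO was 0.414 of that in WT (log2 difference −1.03, SE 0.166, adjusted p = 0.00106). The call held with equal totals (−0.68, adjusted p = 0.0181) and with the genotype factors removed (−0.50, adjusted p = 0.0282). Sohlh1 was listed at 0, 0.655 and 0.734 FPKM in KO 1 to KO 3, against 0.279, 1.20 and 0.864 FPKM in WT 1 to WT 3, and these ranges overlap.

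bHLH factors pair with E proteins and are held back by the Id proteins, which lack a DNA-binding region. Of 6 tested genes of this group, 3 were higher and 1 lower in Rtcb KO, against 9.29% and 54.0% of all tested genes. The median log2 difference was 0.96 against −0.47 for all genes. Id3 averaged 158 ± 64.1 FPKM in Rtcb KO and 10.5 ± 3.35 FPKM in WT (log2 difference 3.76), and Id2 averaged 69.8 ± 10.8 FPKM in Rtcb KO and 9.44 ± 0.736 FPKM in WT (2.75). Id1 averaged 9.72 ± 4.34 FPKM in Rtcb KO and 2.84 ± 0.869 FPKM in WT (1.42). The E protein gene Tcf3 was the one that was lower, at 12.2 ± 1.87 FPKM in Rtcb KO and 25.4 ± 5.58 FPKM in WT (−0.99), a call that was lost under the 3 other scalings (adjusted p = 0.0513 with equal totals, 0.0546 by median ratios and 0.0954 with the factors removed). Under those scalings 5 of the 6 genes were higher and 0 lower. Of all tested genes, 19.0%, 22.8% and 25.7% were higher under them and 25.8%, 21.7% and 18.0% lower. The other E protein genes tested, Tcf12 (log2 difference 0.50, limma adjusted p = 0.0518) and Tcf4 (0.40, adjusted p = 0.0705), were not called as deposited. Both were among the 5 called higher under the other scalings.

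The zona pellucida genes, which FIGLA activates, were all 3 called lower in Rtcb KO as deposited, as were 54.0% of all tested genes. Figla itself was higher. Zp1 averaged 672 ± 54.5 FPKM in Rtcb KO and 1459 ± 226 FPKM in WT (log2 difference −1.11), Zp2 averaged 899.9 ± 152 FPKM in Rtcb KO and 1812 ± 430 FPKM in WT (−0.996), and Zp3 averaged 3555 ± 114 FPKM in Rtcb KO and 5784 ± 394 FPKM in WT (−0.70). With the genotype factors removed the 3 differences stayed negative, and Zp1 alone was called (−0.53, adjusted p = 0.0126). The Zp2 call was lost under each other scaling (limma adjusted p = 0.0533 with equal totals, 0.0606 by median ratios and 0.104 with the factors removed). The Zp3 call was lost by median ratios (adjusted p = 0.146) and with the factors removed (0.347).

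Of the oocyte homeobox factors, Lhx8 was lower as deposited and Nobox was not called. Nobox was at 687, 534 and 604 FPKM in KO 1 to KO 3, against 892, 837 and 623 FPKM in WT 1 to WT 3. The groups overlapped, because WT 3 lay below KO 1. Its log2 difference was −0.36 (SE 0.154, 95% interval −0.71 to −0.00056, adjusted p = 0.0739) and turned positive, uncalled, with equal totals (0.076), median ratios (0.16) and the factors removed (0.23). Without WT 3 it was −0.51 and called (adjusted p = 0.00899).

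Lhx8, a LIM homeobox factor, was at 230, 182 and 237 FPKM in KO 1 to KO 3, against 343, 330 and 284 FPKM in WT 1 to WT 3. All Rtcb KO libraries lay below all WT libraries. The log2 difference was −0.56 (SE 0.128, adjusted p = 0.00553), beside −0.58 from the genotype factors alone. It was −0.13 with equal totals (adjusted p = 0.474, 95% interval −0.47 to 0.20), −0.051 by median ratios (adjusted p = 0.749) and, with its sign turned, 0.019 with the factors removed (adjusted p = 0.917, 95% interval −0.27 to 0.31).

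LIM homeobox proteins act through LDB adaptors, SSBP proteins and the competing LMO proteins. Of 8 tested genes of this group, 1 was higher and 3 were lower, against 9.29% and 54.0% of all tested genes. The median was −0.51 against −0.47 for all genes. Ldb2 averaged 5.24 ± 0.833 FPKM in Rtcb KO and 12.2 ± 0.793 FPKM in WT (log2 difference −1.08), called under all 4 scalings. Ssbp3 (−0.79) and Ssbp2 (−0.45) were called lower as deposited alone, and Ssbp2 turned to 0.037 by median ratios and 0.0999 with the factors removed. The Ssbp2 call was also lost without WT 2 (adjusted p = 0.0649) and without KO 3 (0.0576). Lmo4, the one that was higher, averaged 7.21 ± 3.17 FPKM in Rtcb KO and 2.82 ± 0.124 FPKM in WT (1.02, adjusted p = 0.0171), and its call was lost without KO 1 (adjusted p = 0.0571) and without KO 3 (0.0614).

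Of 9 tested genes known to be lost in Nobox mutant ovaries, 0 were higher and 6 lower, against 9.29% and 54.0% of all tested genes. Their median was −0.79 against −0.47 for all genes. With the genotype factors removed 3 of the 9 were higher and 2 lower, against 25.7% and 18.0% of all tested genes. Zar1, a maternal-effect gene, averaged 1759 ± 182 FPKM in Rtcb KO and 3611 ± 567 FPKM in WT (log2 difference −1.03), and its call held under all 4 scalings. Dnmt1, the maintenance DNA methyltransferase, averaged 136 ± 15.5 FPKM in Rtcb KO and 622 ± 46.1 FPKM in WT (−2.19), also under all 4. H1foo, the oocyte linker histone, averaged 7214 ± 414 FPKM in Rtcb KO and 12471 ± 859 FPKM in WT (−0.79), and Rfpl4, an oocyte RING finger gene, averaged 1557 ± 240 FPKM in Rtcb KO and 2681 ± 355 FPKM in WT (−0.79), both called as deposited and with equal totals but not by median ratios or with the factors removed. Gdf9, an oocyte growth factor gene named after its values were seen, averaged 3618 ± 533 FPKM in Rtcb KO and 7089 ± 1456 FPKM in WT (−0.96), and its call was lost under the other scalings (adjusted p = 0.0531 with equal totals). Bmp15, its relative and named in the same way, averaged 1011 ± 168 FPKM in Rtcb KO and 1874 ± 448 FPKM in WT (−0.87), a call also lost under the other scalings (adjusted p = 0.116 with equal totals).

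Tbpl2 had the largest called rise of the 9 tested factors. It was at 36.3, 28.7 and 27.8 FPKM in KO 1 to KO 3, against 19.1, 17.1 and 14.7 FPKM in WT 1 to WT 3. All Rtcb KO libraries lay above all WT libraries, with KO 1 the highest. The log2 difference was 0.83 (SE 0.148, adjusted p = 0.0018), with a mean in Rtcb KO of 1.82 times that in WT, and was 1.24 with equal totals and 1.35 with the genotype factors removed. Without any 1 library it lay between 0.71 and 0.91.

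Taf4b was at 16.6, 8.64 and 14.3 FPKM in KO 1 to KO 3, against 11.0, 8.62 and 7.84 FPKM in WT 1 to WT 3. The groups overlapped, since KO 2 lay among the WT libraries. Its log2 difference was 0.45 (SE 0.238, 95% interval −0.099 to 0.999, adjusted p = 0.13). It was called with equal totals (0.84, adjusted p = 0.031), with median ratios (0.92, adjusted p = 0.0147), with the factors removed (0.93, adjusted p = 0.0136) and, as deposited, without KO 2 (0.71, adjusted p = 0.0112).

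Of 21 tested genes of the rest of the TBP family, TFIIA and TFIID, 0 were higher and 15 lower as deposited. Of all tested genes, 9.29% were higher and 54.0% lower. The median of the 21 was −0.58 against −0.47 for all genes. With the factors removed 5 of the 21 were higher and 3 lower, against 25.7% and 18.0% of all tested genes. Their median was then 0.0035 against 0.043 for all genes. Gtf2a1, the TFIIA subunit gene whose product partners TBPL2 in oocytes, averaged 42.0 ± 1.16 FPKM in Rtcb KO and 107.5 ± 15.2 FPKM in WT (log2 difference −1.33), lower under all 4 scalings. Taf6 averaged 31.9 ± 0.963 FPKM in Rtcb KO and 64.1 ± 4.57 FPKM in WT (−0.98), also lower under all 4. Taf3 (−0.88) kept its call with equal totals and by median ratios but not with the factors removed (−0.30, adjusted p = 0.0514), and Taf12 (−0.67) was called as deposited alone. Of the paralogs, named after their values were seen, Tbp was at 109 ± 4.56 FPKM in Rtcb KO and 151 ± 3.99 FPKM in WT (−0.46), which turned to 0.050 by median ratios and 0.12 with the factors removed. Tbpl1 was at 3.74 ± 0.249 FPKM in Rtcb KO and 9.12 ± 2.05 FPKM in WT (−1.07), lower under all 4 scalings. Taf4a was at 16.3 ± 1.69 FPKM in Rtcb KO and 31.7 ± 9.22 FPKM in WT (−0.88), called as deposited alone. Gtf2a1l, a TFIIA gene of the same list as Gtf2a1, was at 123 ± 34.1 FPKM in Rtcb KO and 109 ± 16.4 FPKM in WT. It was not called as deposited (0.14, limma adjusted p = 0.558) or with equal totals (adjusted p = 0.0698). It was called higher by median ratios (0.65, adjusted p = 0.0281) and with the factors removed (0.72, adjusted p = 0.0221). Gtf2b, of the same list and named after its values were seen, was called in opposite directions. It was lower as deposited (−0.28, limma adjusted p = 0.0197) and higher with the factors removed (0.31, adjusted p = 0.01996). With equal totals (adjusted p = 0.117) and by median ratios (0.0618) it was not called. The deposited call was lost without each of 2 single libraries.

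Foxo3 was not called as deposited. It was at 11.2, 10.8 and 12.6 FPKM in KO 1 to KO 3, against 11.1, 10.8 and 8.61 FPKM in WT 1 to WT 3. The ranges overlapped. Its log2 difference was 0.17 (SE 0.143, 95% interval −0.16 to 0.50, adjusted p = 0.316), and it was called higher with equal totals (0.57, adjusted p = 0.0206), by median ratios (0.64, adjusted p = 0.0081) and with the factors removed (0.67, adjusted p = 0.00645).

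PI3K signalling sends FOXO3 out of the nucleus. Of 23 tested genes of PI3K to FOXO signalling, 1 was higher and 12 were lower, against 9.29% and 54.0% of all tested genes. The median was −0.38 against −0.47 for all genes. With the factors removed 4 of the 23 were higher and 3 lower, against 25.7% and 18.0% of all tested genes. Kit, the receptor that drives oocyte growth, averaged 28.7 ± 3.72 FPKM in Rtcb KO and 95.3 ± 11.3 FPKM in WT (log2 difference −1.69). Mtor averaged 2.52 ± 0.228 FPKM in Rtcb KO and 7.08 ± 0.739 FPKM in WT (−1.20). Both were lower under all 4 scalings. Sirt1, a deacetylase of FOXO proteins, was the one that was higher, at 38.6 ± 10.7 FPKM in Rtcb KO and 10.1 ± 0.991 FPKM in WT (1.79), under all 4 scalings. Pik3r1, the regulatory subunit, was called lower as deposited (−0.77) and with equal totals. It was not called by median ratios (limma adjusted p = 0.0687) or with the factors removed (−0.21, adjusted p = 0.151).

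Genes known as FOXO targets were called in both directions, 4 higher and 4 lower of 11 tested, against 9.29% and 54.0% of all tested genes. The median was 0.22 against −0.47 for all genes. Sesn1, a stress-response gene, averaged 4.77 ± 1.46 FPKM in Rtcb KO and 1.25 ± 0.232 FPKM in WT (log2 difference 1.33), and Ccng2, a cyclin gene, averaged 27.9 ± 2.11 FPKM in Rtcb KO and 15.8 ± 2.18 FPKM in WT (0.79), both under all 4 scalings. Klf6, named after its values were seen, averaged 8.04 ± 4.39 FPKM in Rtcb KO and 0.977 ± 0.172 FPKM in WT (2.05). Pik3ip1 was called higher (0.54, adjusted p = 0.0334), a call lost in turn without each of 4 single libraries, up to 0.111 without KO 1, and with no filter on low values (adjusted p = 0.0619). Bcl2l11, the gene of the pro-apoptotic BIM (−0.93), and Trib2 (−1.01) were lower as deposited, with equal totals and by median ratios, and not with the factors removed (adjusted p = 0.0508 and 0.0612). Sod2 (−0.32) and Sesn3 (−0.50), named after their values were seen, were lower as deposited and turned positive with the factors removed (0.24 and 0.033), Sod2 also with equal totals (0.098) and by median ratios (0.18), and each lost its call in turn without each of 5 single libraries. The call was also lost for Sod2 with no intensity trend (adjusted p = 0.0502) and for Sesn3 with no filter (0.0557). With the factors removed 6 targets were higher and 0 lower, against 25.7% and 18.0% of all tested genes.

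Both pluripotency factors were called lower as deposited and were not called under the other scalings. Sall4 was at 282, 293 and 284 FPKM in KO 1 to KO 3, against 433, 402 and 457 FPKM in WT 1 to WT 3. The groups were wide apart. The log2 difference was −0.58 (SE 0.0828, adjusted p = 0.000602), beside −0.58 from the genotype factors alone, and it was −0.15 with equal totals (adjusted p = 0.147, 95% interval −0.34 to 0.029) and −0.0012 with the factors removed (adjusted p = 0.993, 95% interval −0.19 to 0.19).

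Pou5f1, the gene of OCT4, was at 59.8, 57.2 and 76.9 FPKM in KO 1 to KO 3, against 130.4, 191 and 77.8 FPKM in WT 1 to WT 3. The groups nearly touched, at KO 3 and WT 3, and the WT spread was wider, relative to its mean, than that of any other tested factor. The log2 difference was −0.95 (SE 0.291, adjusted p = 0.0212). The difference stayed negative but the call was lost with equal totals (−0.52, adjusted p = 0.187), with median ratios (−0.44, adjusted p = 0.232) and with the factors removed (−0.37, adjusted p = 0.324). The call was also lost without the filter on low values (adjusted p = 0.0522), and without KO 1 (adjusted p = 0.0565), KO 2 (0.0572), WT 1 (0.0573) or WT 2 (0.0531). Processed copies of Pou5f1 exist in the genome and an antisense gene overlaps its exons, as an opposite-strand gene overlaps Sall4, and the labels do not state whether the counting separated their reads.

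Of 15 tested genes of the pluripotency network other than these, 1 was higher and 6 lower, against 9.29% and 54.0% of all tested genes. Their median was −0.10 against −0.47 for all genes. With the factors removed 6 of the 15 were higher and 2 lower, against 25.7% and 18.0% of all tested genes. The 2 that were lower under all 4 scalings were Tfap2c, at 12.9 ± 1.53 FPKM in Rtcb KO and 41.3 ± 2.43 FPKM in WT (log2 difference −1.61), and Dppa4, at 11.7 ± 2.19 FPKM in Rtcb KO and 26.0 ± 0.964 FPKM in WT (−1.10). Tcl1, at 3875 ± 371 FPKM in Rtcb KO and 5343 ± 413 FPKM in WT (−0.46), and Dppa3, at 5161 ± 193 FPKM in Rtcb KO and 6958 ± 726 FPKM in WT (−0.43), were called as deposited alone and turned positive by median ratios and with the factors removed, Dppa3 also with equal totals (0.0061). Nr5a2, the one that was higher (0.48, adjusted p = 0.0317), lost its call in turn without each of 4 single libraries, up to 0.0986 without KO 1, and with no filter (adjusted p = 0.0552).

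Shares within a library do not depend on how the library was scaled, and are given as a description. Of the summed FPKM of the 10 factors, Figla made up 12.2% ± 1.10 in Rtcb KO and 6.99% ± 1.15 in WT (SD, n = 3 each), and Tbpl2 made up 2.198% in Rtcb KO and 0.923% in WT. Nobox made up 43.2% ± 2.33 in Rtcb KO and 42.4% ± 3.42 in WT, and Sohlh2 made up 0.213% in Rtcb KO and 0.394% in WT. The groups did not overlap for 6 of the 10 shares, those of Figla, Tbpl2, Taf4b and Foxo3 (higher in Rtcb KO) and of Lhx8 and Sohlh2 (lower in Rtcb KO). As a share of the library total, 57.0% of all tested genes did not overlap. The plot of shares shows all 10, with Sohlh1 not drawn in KO 1, where it was listed at 0.

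**Figure D3:**
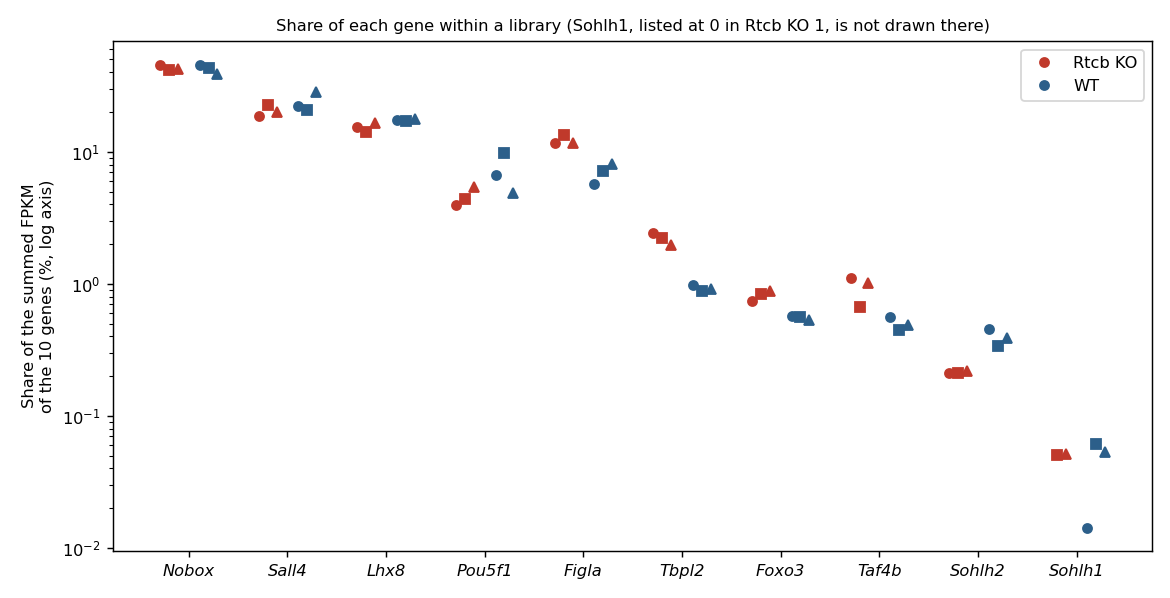
Share of each of the 10 factors in their summed FPKM, in percent on a log axis, for each library, Rtcb KO left of WT. Figla averaged 12.2% of the sum in Rtcb KO and 6.99% in WT, and Nobox held the largest share in every library.

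Ratios between 2 transcripts of the same library are likewise free of scaling, and the pairs were chosen with results known. Zp3 to Figla was 20.8 in Rtcb KO and 46.0 in WT, Zp1 to Figla 3.92 in Rtcb KO and 11.7 in WT, and Zp2 to Figla 5.26 in Rtcb KO and 14.6 in WT. For these 3 ratios every Rtcb KO library lay below every WT library. Gdf9 to Nobox was 5.94 ± 0.194 in Rtcb KO and 9.02 ± 0.334 in WT, and Bmp15 to Nobox was 1.66 ± 0.0731 in Rtcb KO and 2.38 ± 0.201 in WT, without overlap. Oosp1 to Nobox overlapped between the genotypes, at 7.38 ± 2.35 in Rtcb KO and 6.01 ± 2.76 in WT.

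Tbp to Tbpl2 was 3.57 ± 0.364 in Rtcb KO and 8.99 ± 1.24 in WT, Taf4a to Taf4b was 1.33 ± 0.436 in Rtcb KO and 3.63 ± 1.60 in WT, and Foxo1 to Foxo3 was 4.14 ± 0.567 in Rtcb KO and 9.42 ± 4.52 in WT. In each of these paralog pairs the Rtcb KO libraries lay below the WT libraries without overlap. Figla to Nobox was 0.284 ± 0.0377 in Rtcb KO and 0.167 ± 0.0404 in WT, again without overlap, whereas Lhx8 to Nobox, at 0.356 ± 0.0321 in Rtcb KO and 0.412 ± 0.0388 in WT, overlapped. Pou5f1 to Nobox (0.107 ± 0.0201 in Rtcb KO and 0.167 ± 0.0547 in WT) overlapped too. So did Sall4 to Pou5f1 (4.51 ± 0.741 in Rtcb KO and 3.76 ± 1.92 in WT). Gdf9 to Tbpl2 and Sohlh2 to Figla were lower in Rtcb KO without overlap. How often ratios of other gene pairs overlap was not computed.

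**Figure D4:**
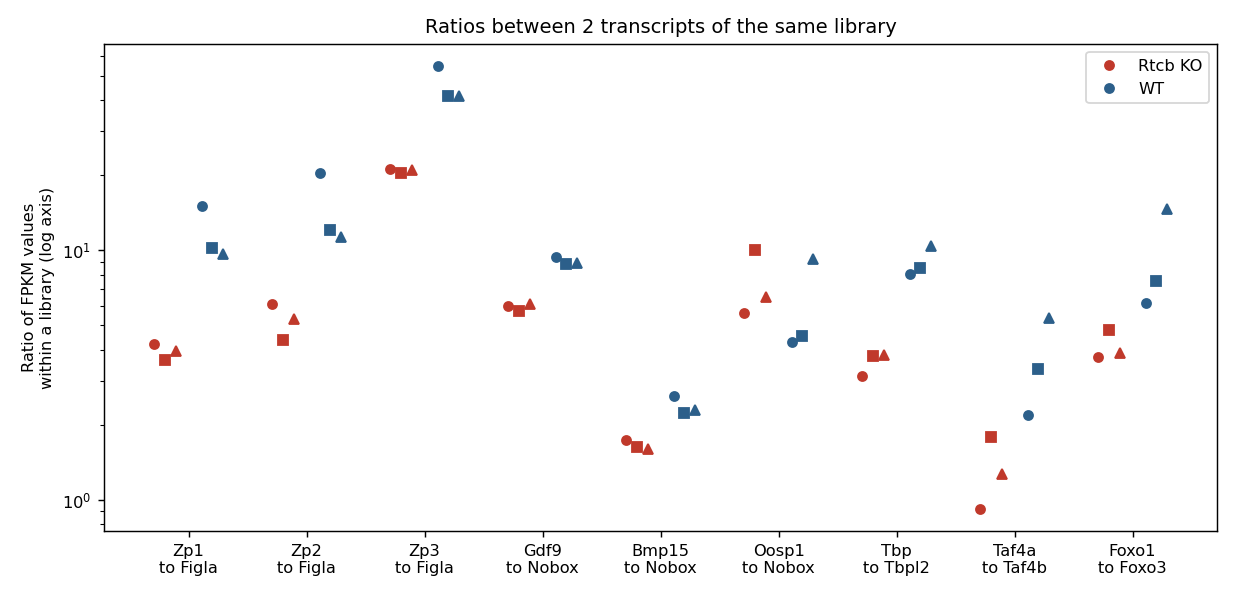
Ratio of 2 FPKM values of the same library on a log axis, Rtcb KO left of WT, with 1 symbol shape per library number. Of the 9 ratios drawn, Oosp1 to Nobox alone overlapped between the genotypes. Of those not drawn, Lhx8 to Nobox, Pou5f1 to Nobox and Sall4 to Pou5f1 overlapped. Gdf9 to Tbpl2, Sohlh2 to Figla and Figla to Nobox, also not drawn, did not.

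Other factors that, with Figla, Nobox, Lhx8, Sohlh1 and Tbpl2, turn stem cells into oocyte-like cells numbered 3, of which 1 was higher and 1 lower. The shares of all tested genes were 9.29% higher and 54.0% lower. Stat3 averaged 24.1 ± 1.03 FPKM in Rtcb KO and 60.8 ± 14.5 FPKM in WT (log2 difference −1.28), lower under all 4 scalings. Dynll1 averaged 376 ± 30.8 FPKM in Rtcb KO and 313 ± 14.5 FPKM in WT (0.26, adjusted p = 0.0374), a call lost in turn without each of 5 single libraries, up to 0.128 without KO 3, and with no intensity trend (adjusted p = 0.0771). Sub1 was not called as deposited (−0.16), and was called higher with equal totals (0.27), by median ratios (0.35) and with the factors removed (0.42). The plot of related genes sets these lists beside the 10 factors.

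**Figure D5:**
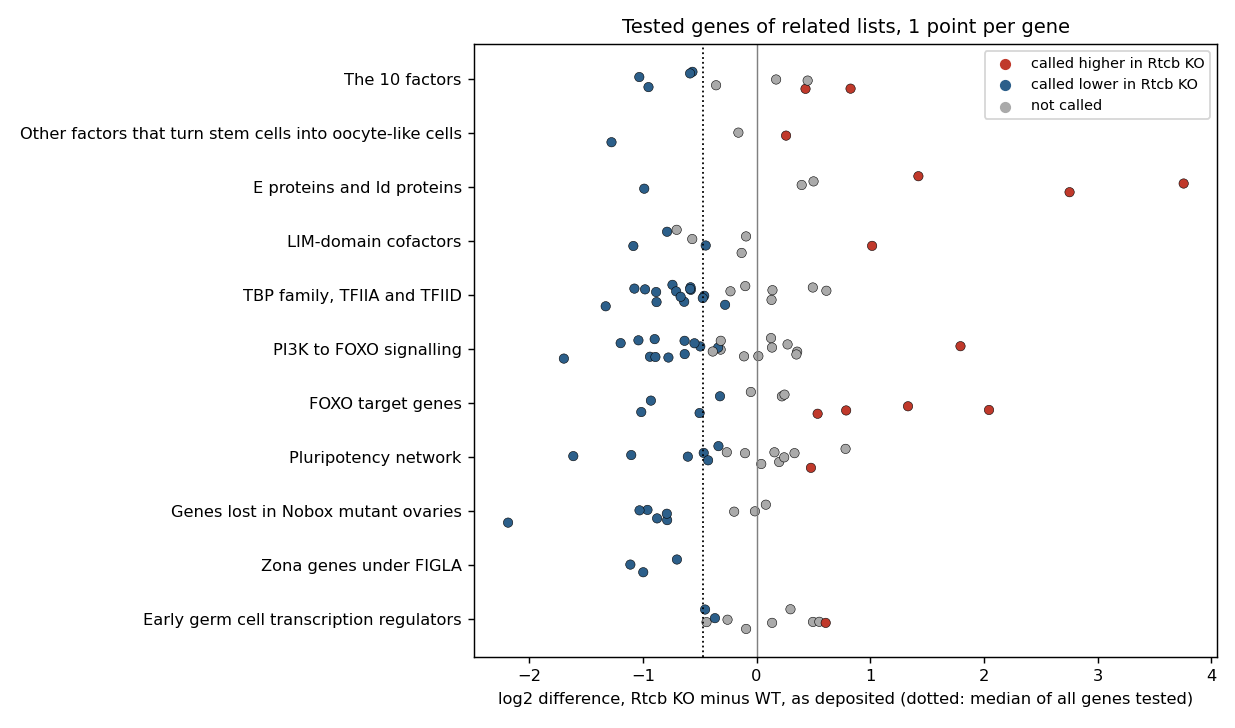
Log2 difference, Rtcb KO minus WT, as deposited, of each tested gene in the lists of related genes, 1 point per gene, coloured by its call, with the median of all tested genes as a dotted line. Id3, Id2, Klf6, Sirt1 and Id1 are among the points at the right, and Dnmt1, Kit and the 3 zona genes are among those left of the dotted line.

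Genes whose centred profile over the 6 libraries came closest to that of Tbpl2 were Trim23, Mblac2 and Zfp644, at Euclidean distances of 0.158, 0.174 and 0.183 on the log2(FPKM + 1) scale. For Sohlh2, Spon1 and Anxa6 were among the 3 closest, at 0.0626 and 0.0858. A total of 10627 genes were compared, and the 6 libraries are the same for all of them.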

How the data were processed

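Polyadenylated RNA of 10 oocytes per library was copied into cDNA by Smart-seq2, per the labels' protocols, in a lysis buffer with ERCC spike-in RNA, and sequenced as paired ends. The submitters' processing notes name Cufflinks 2.2.1, TopHat2 2.1.1 and mouse build mm9. The authors deposited FPKM for each gene symbol, scaled by the ERCC spike-ins per the labels. Their annotation is not stated in the labels. A search over 427 fractions recovered values of 6 significant digits in 100% of values of at least 1 (tolerance 0.01 of the last digit) after division by 2 in WT and by 1.33 in Rtcb KO, up to powers of 10, against at most 76.8% for the next fraction. Each genotype therefore carries 1 factor, and spike-in error between its libraries is not part of the spread.

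The limma package (3.58.1, R 4.3.3; eBayes, intensity trend) was run on log2(FPKM + 1) for the 12029 genes whose mean reached 1 FPKM. Tests were two-sided, and a call is a Benjamini-Hochberg adjusted p under 0.05 over these genes. This step was also tested on simulated data of known change. Alternatives were pseudocounts of 0.1 and 5, no filter, a mean of at least 10 FPKM, 3 other scalings, no intensity trend, a replicate block and each library left out in turn. Each scaling was tested on the same genes.

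The 10 factors and the lists of related genes were chosen with earlier results of these data known. Of each list, up to 4 genes of smallest p were named, and any called against the direction of most called genes. Tbp, Tbpl1, Taf4a, Foxo1, Gdf9, Bmp15, Oosp1, Klf6, Pik3ip1, Sesn3, Sod2, Tcf4, Tcf12 and Gtf2a1l were named outside that rule, after their values were seen. Gtf2b was named in the same way. Nearest profiles leave out predicted and small RNA symbols. The result of 1 gene among them is not reported here. Promoter sequences came from RefSeq. Python 3.11.15, numpy 2.4.6, pandas 2.3.3 and matplotlib 3.10.9 were used. Read counts were not used, so depth and counting error are unknown.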

Additional observations from a re-analysis of the deposited data

How the results depend on the processing

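Counts over all genes moved with the scaling and the filter. Genes higher in Rtcb KO numbered 1118 as deposited, 490 at a mean of at least 10 FPKM, 2283 with equal totals, 2746 by median ratios and 3097 with the genotype factors removed, and genes lower in Rtcb KO numbered 6501, then 3107, 2606 and 2161 under those 3 scalings. Of the factors, 4 were higher and 1 lower under each of the 3 scalings, against 2 and 4 as deposited. Leaving out 1 library gave 769 to 1360 genes higher, 5587 to 6234 lower, and 2 to 3 factors higher and 3 to 5 lower. With the replicate number as a block, 1108 genes were higher and 6432 lower, and 2 factors higher and 5 lower, as Nobox passed (adjusted p = 0.0495). Whether the numbers pair the libraries is not in the labels. Same-numbered libraries correlated at 0.141, −0.0988 and 0.0379 in their deviations from the genotype means. KO 1 and KO 3 correlated best with the WT library of their own number, and KO 2 with WT 3 (0.172). Correlations this weak cannot settle whether libraries were paired.

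Values of differences of named genes that changed sign were as follows, for equal totals, median ratios and factors removed where 3 are given. Gtf2b took 0.16, 0.24 and 0.31. Nobox took 0.076, 0.16 and 0.23, Sub1 0.27, 0.35 and 0.42, Dppa3 0.0061, 0.088 and 0.16, Gata4 0.038, 0.11 and 0.17, Sod2 0.098, 0.18 and 0.24 and Oosp1 0.42, 0.50 and 0.57. By median ratios and with the factors removed, Ssbp2 took 0.037 and 0.0999, Tcl1 0.050 and 0.12, Trp63 0.030 and 0.092 and Tbp 0.050 and 0.12. With the factors removed, Lhx8 took 0.019 and Sesn3 0.033. Oosp1 ranged from −0.17 to 0.18 when 1 library was left out. Of the 6 factors called as deposited, the 3 scalings gave 18 values, of which 9 kept the call, 8 lost it and 1 turned sign, leaving out 1 library gave 36, of which 32 kept it, and the other settings gave 35, of which 34 kept it. Of the 3 not called, the scalings called 6 of 9 values and turned the other 3 in sign, and leaving out 1 library called 2 of 18. Under the block the calls of Dynll1 (adjusted p = 0.0641), Pik3ip1 (0.0602) and Sod2 (0.0594) were also lost. Of 300 counts of the other lists over all settings, 212 stayed within 1.5 times and 88 moved, 49 of them under the 3 scalings. The cause was not tested. Depth is unknown, so no counting error can be given.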

Other observations

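Early germ cell regulators, a list of transcription regulators known from the germ line or the early gonad, had 7 uncalled members as deposited. Of 10 tested of 18 listed, 1 was higher and 2 lower, against 9.29% and 54.0% of all tested genes. The median log2 difference was 0.023 against −0.47 for all genes. Mael, needed for transposon silencing, averaged 136 ± 9.04 FPKM in Rtcb KO and 88.7 ± 3.90 FPKM in WT (log2 difference 0.61, limma adjusted p = 0.000726), higher under all 4 scalings. Trp63, the p63 guardian of resting oocytes, averaged 12.8 ± 0.593 FPKM in Rtcb KO and 17.9 ± 1.39 FPKM in WT (−0.45, adjusted p = 0.0106), a call lost under the other scalings, where its sign turned by median ratios (0.030) and with the factors removed (0.092). Gata4 averaged 12.6 ± 1.44 FPKM in Rtcb KO and 16.5 ± 1.53 FPKM in WT (−0.37, adjusted p = 0.0427), with its sign turned under the 3 other scalings (0.038 to 0.17) and its call lost in turn without each of 5 single libraries, up to 0.121 without WT 1, with no filter (0.0579) and at a mean of at least 10 FPKM (0.0501). Prdm1, the regulator that specifies germ cells, was not called as deposited (0.55, adjusted p = 0.073) and was called higher without KO 2 (adjusted p = 0.00326) and under the 3 other scalings. With the genotype factors removed 5 of the 10 were higher and 0 lower, against 25.7% and 18.0% of all tested genes.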
